A study of Mus musculus with 14 samples.

Results

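Macrophages grown from marrow monocytes in culture were compared with F4/80-sorted cells from the marrow of leukemic mice, both without interleukin-4 (IL4). The comparison used the 7 control libraries among the 14 RNA-seq libraries of the series, 4 from culture and 3 from marrow, chosen by their labels alone. Each culture control came from monocytes purified from C57BL/6J mouse marrow and kept 7 days in medium with serum and the macrophage growth factor CSF1. The growth protocol gives 25 ng/mL CSF1 and the design text gives 20 ng/mL. Each marrow control came from C57BL/6J mice 12 days after they were given acute myeloid leukemia (AML) cells carrying an empty vector; the design text calls these AML cells wild type. Cells positive for F4/80, a surface protein of macrophages, were then sorted from that marrow. The deposited column names of the marrow controls carry the prefix NBM, which no label explains. The other 7 libraries had the same 2 sources with IL4: 4 cultures with 20 ng/mL IL4 throughout, and 3 marrow sorts from mice given IL4-secreting AML cells. The sources used here do not give the age of the mice, the number of animals behind a library or the identity of the AML line.

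Macrophages that grow from monocytes under CSF1 take on scavenger receptors, lysosomal enzymes and lipid-handling genes as they mature. Marrow holds several kinds of F4/80-bearing cell, among them monocytes at different stages, resident macrophages that clear erythroid nuclei and recycle iron, and eosinophils. It also holds dividing myeloid precursors and, here, leukemic cells, so a sort on a surface protein can collect cells at many stages of differentiation and of the cell cycle.

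Expression was available for 9474 genes as log2 values, and whole read counts could be recovered from those values for 9375 genes, 99.0% of them. Recovered reads summed to 538068 to 769271 per culture control and 599823 to 643351 per marrow control, with medians of 29 to 41 and 32 to 35 reads per gene. The share of genes with 0 reads was 0.363% to 0.619% in culture and 1.1% to 1.37% in marrow. Reads are listed below in the order culture controls 1 to 4, then marrow controls 1 to 3. Differences are log2 culture minus marrow on values centred on each library's median, with the standard error of the fit, and a gene was called at a Benjamini-Hochberg adjusted p below 0.05 in limma (two-sided, n = 4 and 3). The culture and marrow values sit in separate deposited tables, and centring removes the constant that sets each library's scale. Source, sort, preparation and experiment changed together between the groups and cannot be told apart. No label says that libraries of a group came from separate cultures or animals, so p-values measure the spread between these libraries. In bulk RNA, fewer cells of a type and less RNA per cell cannot be told apart. Culture control 4 stood apart: chi-square per degree of freedom of its reads against culture controls 1 to 3 was 3.99 to 5.08, against 1.43 to 2.03 among those 3 and 1.39 to 1.59 among the marrow controls.

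Cultured cells had far more RNA of macrophage surface, scavenger, lysosomal and lipid genes. Sorted marrow cells had far more RNA of neutrophil, monocyte and DNA replication genes. Of the 9474 genes, 4763 were called, 50.3% of all. There were 2443 genes higher in culture (25.8%) and 2320 higher in marrow (24.5%), and 5348 genes had an unadjusted p below 0.05. Values of the groups did not overlap for 5197 genes (54.9%). The median absolute difference was 0.62 over all genes and 1.18 over called genes, while the median signed difference was -0.02, or -0.18 without centring. Differences of at least 16-fold were called for 185 genes in the culture direction and 64 in the marrow direction. With more than 50% of all genes called, each gene group below is read against these shares.

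The marrow libraries were checked first against the protein used for the sort. Emr1, the gene for F4/80 (symbol Adgre1 in GENCODE, chr17:57358691-57483527, plus strand, mm10), had centred log2 levels of 14.29, 14.13, 14.07 and 14.1 in culture and 8.24, 9.38 and 8.58 in marrow. That is a difference of 5.42 ± 0.24 (limma adjusted p = 5.18e-07), and the groups did not overlap. Reads could not be recovered for Emr1. Csf1r, the receptor for CSF1, had 2767, 1836, 1935 and 2171 reads in culture and 227, 304 and 276 in marrow, a difference of 3.07 ± 0.12 (limma adjusted p = 3.66e-07). Cd68, a glycoprotein of macrophage endosomes and lysosomes, had 1095, 525, 668 and 832 reads in culture and 61, 67 and 65 in marrow. Each marrow control thus held reads of Csf1r and Cd68, and each of these genes was lower than in every culture control. For Emr1, levels hold a constant per gene, so they do not show how many reads the marrow controls had.

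The macrophage identity list (28 of 29 genes measured) had 22 members higher in culture, 1 higher in marrow and 5 not called, with a median difference of 2.68. Its members with recovered reads took 2.54% to 4.62% of reads in the culture controls and 0.339% to 0.368% in the marrow controls. None of them was at 0 in all libraries of a group. Gpnmb, a transmembrane glycoprotein of phagocytes (chr6:49036546-49070929, plus strand), had 6049, 3709, 4081 and 9366 reads in culture and 1, 1 and 5 in marrow. The reads differed 2570-fold (95% exact counting interval 1250 to 6390, which covers counting error only). Mertk, a receptor tyrosine kinase for apoptotic cells (chr2:128698956-128802894, plus strand), had 152, 105, 102 and 163 reads in culture and 3, 0 and 0 in marrow, a ratio of 135 with an interval of 45.9 to 656. Trem2, a lipid-sensing receptor, had 1015, 476, 591 and 841 reads in culture against 8, 17 and 10. Mrc1, the mannose receptor, had 1024, 875, 766 and 439 reads in culture against 12, 10 and 9, and was lowest in culture control 4 within its group. Fcgr1, the high-affinity IgG receptor, separated less, with 164, 90, 83 and 133 reads in culture against 22, 26 and 20.

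Not every myeloid gene followed. Spi1, which encodes the myeloid transcription factor PU.1, had 224, 112, 167 and 165 reads in culture and 189, 158 and 175 in marrow, a difference of -0.04 ± 0.17 (limma adjusted p = 0.88). Itgam, the gene for CD11b, differed by -0.04 ± 0.12 (limma adjusted p = 0.803), and Lyz2, the lysozyme gene of myeloid cells, by 0.38 ± 0.12 (limma adjusted p = 0.0293). The Lyz2 call was lost in 10 of the alternative fits that tested it. The fit with voom weights did not test it, because no Lyz2 reads were recovered. Without culture control 1 its limma adjusted p = 0.0721, without culture control 3 0.0567, without marrow control 1 0.108 and without marrow control 2 0.0733. Cebpb, a transcription factor of granulocytes and monocytes, was the list's member called higher in marrow, with 29, 15, 39 and 59 reads in culture and 106, 126 and 77 in marrow. Tfec, Cd163 and Tfeb were not called.

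**Figure D1:**
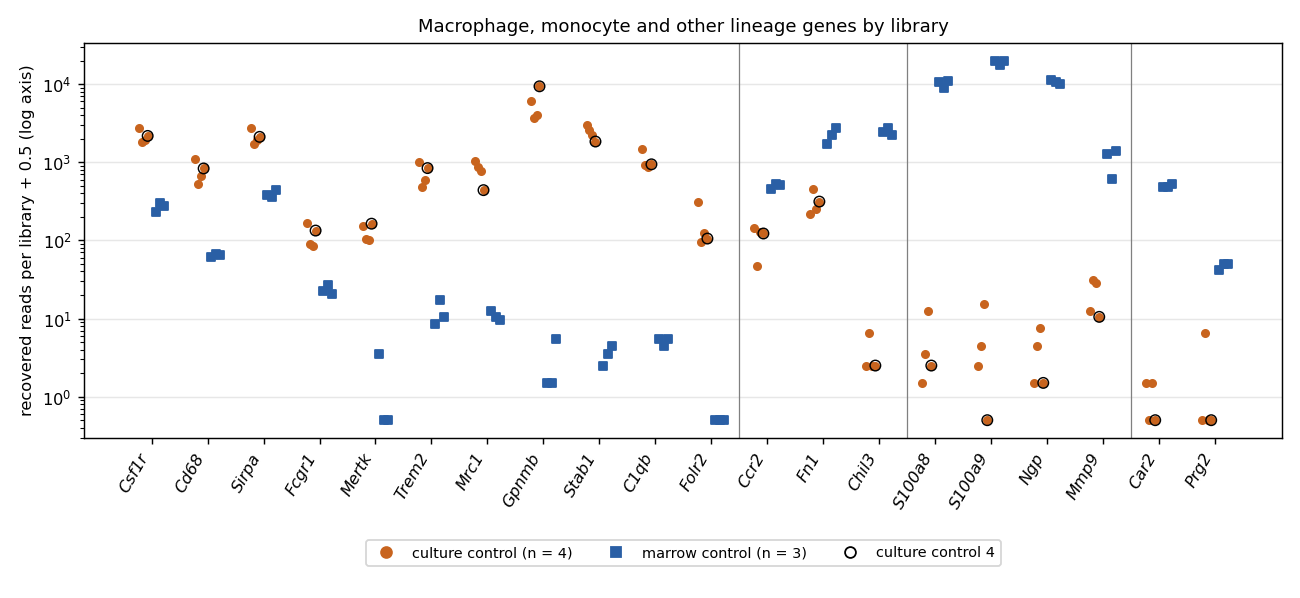
Recovered reads plus 0.5 on a log axis for 20 genes in the 7 control libraries; orange circles are the 4 culture controls, blue squares the 3 marrow controls, and a ring marks culture control 4. From left to right, separated by grey lines, stand macrophage, monocyte, neutrophil and other lineage genes; Gpnmb sits at 3709 to 9366 reads in culture and 1 to 5 in marrow, and S100a9 at 0 to 15 and 17587 to 19948.

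Genes of resident marrow macrophages were also higher in culture than in the sorted marrow cells. Of 19 measured of 26 listed, 17 were higher in culture and 1 in marrow, with a median of 4.30. Stab1, the scavenger receptor stabilin-1, had 3021, 2577, 2215 and 1840 reads in culture and 2, 3 and 4 in marrow (chr14:31139013-31168641, minus strand). C1qb, a chain of complement C1q, had 1455, 916, 874 and 940 reads in culture and 5, 4 and 5 in marrow. Folr2, a folate receptor of resident macrophages, had 311, 94, 122 and 105 reads in culture and 0 in each marrow control. Its reads were at least 163-fold higher in culture, against a floor of 3 reads over the marrow group. Siglec1, the sialoadhesin of marrow resident macrophages, had 290, 96, 116 and 99 reads in culture and 18, 13 and 8 in marrow (3.45 ± 0.36, limma adjusted p = 6.13e-05). Vcam1, the adhesion molecule that also marks resident marrow macrophages, went the other way. It had 5, 4, 0 and 0 reads in culture and 17, 25 and 22 in marrow, a ratio of 9.18 with an interval of 4.54 to 21. Only Cd163 in this list was not called, with 10, 4, 7 and 4 reads against 5, 4 and 5.

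Most iron genes were higher in culture. Of 20 measured iron and heme recycling genes, 14 were higher in culture, 2 in marrow and 4 not called (median 1.30). Hmox1, which degrades heme, had 452, 302, 303 and 285 reads in culture and 44, 47 and 39 in marrow, and the ferritin genes Fth1 and Ftl1 differed by 3.39 ± 0.16 and 3.30 ± 0.12. Slc40a1, the iron exporter ferroportin, had 359, 265, 308 and 474 reads in culture and 153, 95 and 152 in marrow, a smaller difference of 1.46 ± 0.25 (limma adjusted p = 0.00114). With the spread pooled over all 14 libraries it was not called (limma adjusted p = 0.132). Tfrc, the transferrin receptor that takes up iron, was higher in marrow: 102, 99, 76 and 42 reads in culture against 433, 437 and 499. Tfrc is also an erythroid gene. The erythroid list, which includes Tfrc and so is not separate from it, had 7 of 30 genes measured. It had 6 of these higher in marrow and took 0.248% to 0.261% of marrow reads against 0.0508% to 0.0701% of culture reads. Its part in the Tfrc result was not tested.

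The 12 genes with the greatest difference toward culture, chosen for that size and so a description, ran from Gpnmb at 11.25 to Col1a2 at 8.30; where marrow reads were 3 or fewer, the fitted size depends on the 0.5 added to each count. Mmp12, the macrophage elastase, had 909, 226, 433 and 2957 reads in culture and 1, 0 and 0 in marrow, highest in culture control 4, and was not called with voom weights (limma adjusted p = 0.109). C3ar1, the receptor for complement C3a, had 1014, 581, 690 and 860 reads against 1, 2 and 0. Hpgds, the hematopoietic prostaglandin D synthase, had 272, 225, 213 and 241 reads in culture and 0 in each marrow control, at least 246-fold higher in culture. Fcrls, Dab2, Pmp22, Ms4a7, Gas6, Cadm1 and Col1a2 completed this group with Stab1. Pmp22 and Fcrls also had 0 reads in every marrow control, and lay at least 276-fold and at least 327-fold higher in culture. Gas6, the ligand of MERTK and AXL, had 435, 358, 340 and 241 reads in culture and 1, 0 and 0 in marrow.

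Among the genes named by size, S100a9, Ngp and S100a8 of the neutrophil list had the greatest differences toward marrow. S100a9 and S100a8 encode the subunits of calprotectin, an abundant protein of neutrophils and monocytes. S100a9 (chr3:90692632-90695721, minus strand) had 2, 4, 15 and 0 reads in culture and 19948, 17587 and 19694 in marrow, a difference of -12.54 ± 0.93 (limma adjusted p = 8.11e-06). S100a8 (chr3:90668978-90670035, plus strand) had 1, 3, 12 and 2 reads in culture and 10712, 8842 and 10895 in marrow. Ngp, the neutrophilic granule protein (chr9:110419747-110423012, plus strand), had 1, 4, 7 and 1 reads in culture and 11274, 10704 and 9961 in marrow. The 3 genes were near 0 in all 4 cultures and at 8842 reads or more in all 3 marrow controls. Mmp9, a gelatinase stored in neutrophil granules, had 12, 31, 28 and 10 reads in culture against 1289, 614 and 1384, and was lowest in marrow control 2 within its group.

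Of 30 neutrophil genes listed, 7 were measured. Of these, 6 were higher in marrow and Anxa3 was not called, with a median of -5.74. Together they took 6.39% to 7.43% of marrow reads and 0.0515% to 0.0787% of culture reads, and none was at 0 in all culture controls. Monocyte genes moved the same way: of 12 measured, 9 were higher in marrow, 1 in culture and 2 were not called, with a median of -1.95 and read shares of 0.989% to 1.21% against 0.193% to 0.306%. Chil3, the chitinase-like protein Ym1, had 2, 6, 2 and 2 reads in culture and 2426, 2739 and 2205 in marrow (ratio 793, interval 453 to 1530). Ccr2, the receptor that brings monocytes into tissue, had 144, 47, 129 and 122 reads in culture and 449, 530 and 507 in marrow (-2.21 ± 0.31, limma adjusted p = 0.000354). Fn1, fibronectin, had 214, 456, 253 and 313 reads in culture and 1708, 2241 and 2707 in marrow. Cx3cr1, the fractalkine receptor, was the monocyte gene called higher in culture, with 249, 231, 286 and 154 reads against 79, 95 and 96. The labels call the sorted cells bone marrow macrophages. The macrophage, neutrophil and monocyte genes give a mixed picture, so the cells are called F4/80-sorted marrow cells here.

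Other lineages gave fewer measured markers. Of 4 eosinophil, basophil and mast cell genes measured, Gata2, Prg2 and Ear2 were higher in marrow and Ccr3 in culture. Prg2, the eosinophil major basic protein, had 0, 6, 0 and 0 reads in culture and 41, 49 and 50 in marrow. Car2, the carbonic anhydrase of erythroid cells and osteoclasts, had 1, 0, 1 and 0 reads in culture and 478, 483 and 520 in marrow (ratio 956, interval 264 to 7900). Tal1, an erythroid and stem cell transcription factor, had 6, 6, 7 and 4 reads against 68, 76 and 85. The progenitor and leukemic blast list had 10 of 28 genes measured, with 4 higher in marrow, 2 higher in culture and 4 not called. Its read shares went the other way, 0.182% to 0.188% in culture against 0.0595% to 0.071% in marrow. The 2 members higher in culture were Cd93, with 3390 reads over the culture controls against 306 over the marrow controls, and Cd48, with 598 against 205. Cd34, a progenitor surface protein, had 9, 15, 11 and 21 reads in culture and 28, 11 and 33 in marrow, and was not called (limma adjusted p = 0.294). Of 23 B cell and plasma cell genes listed, 5 were measured, with 2 higher in culture, 2 in marrow and 1 not called. Cd79b, a chain of the B cell receptor, had 9, 6, 4 and 10 reads against 54, 40 and 55. Cd22 was also higher in marrow, while Blnk and Cd72 were higher in culture. These counts rest on few genes, and the count of the progenitor list higher in marrow fell to 2 without marrow control 1 and to 2 without marrow control 3.

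The remaining genes with the greatest differences toward marrow, chosen for that size, were Ccdc88c, Cd24a, F5, Rab44, Plbd1, Acap1 and Aqp1. F5, coagulation factor V, had 0 reads in every culture control and 155, 119 and 146 in marrow, at least 181-fold higher in marrow. Cd24a, a surface protein of immature and granulocytic cells, had 0, 4, 6 and 3 reads in culture and 909, 740 and 941 in marrow. Aqp1, the water channel of red cells and endothelium, had 1, 11, 0 and 6 reads against 351, 322 and 418.

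Collagen and stromal genes were present in culture. Of 10 measured endothelial and stromal genes, 7 were higher in culture and 3 in marrow, and the list took 0.103% to 0.242% of culture reads against 0.0143% to 0.0179% of marrow reads. Col1a2 had 286, 491, 249 and 277 reads in culture and 1, 1 and 0 in marrow. Bgn, the matrix proteoglycan biglycan, had 111, 178, 64 and 86 reads in culture and 0 in each marrow control. Both were highest in culture control 2. Pecam1, an endothelial and myeloid adhesion molecule, was higher in marrow, with 1, 0, 0 and 1 reads against 24, 20 and 32. The matrix list as a whole had 19 of 25 measured members higher in culture and 4 in marrow (median 2.41).

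**Figure D2:**
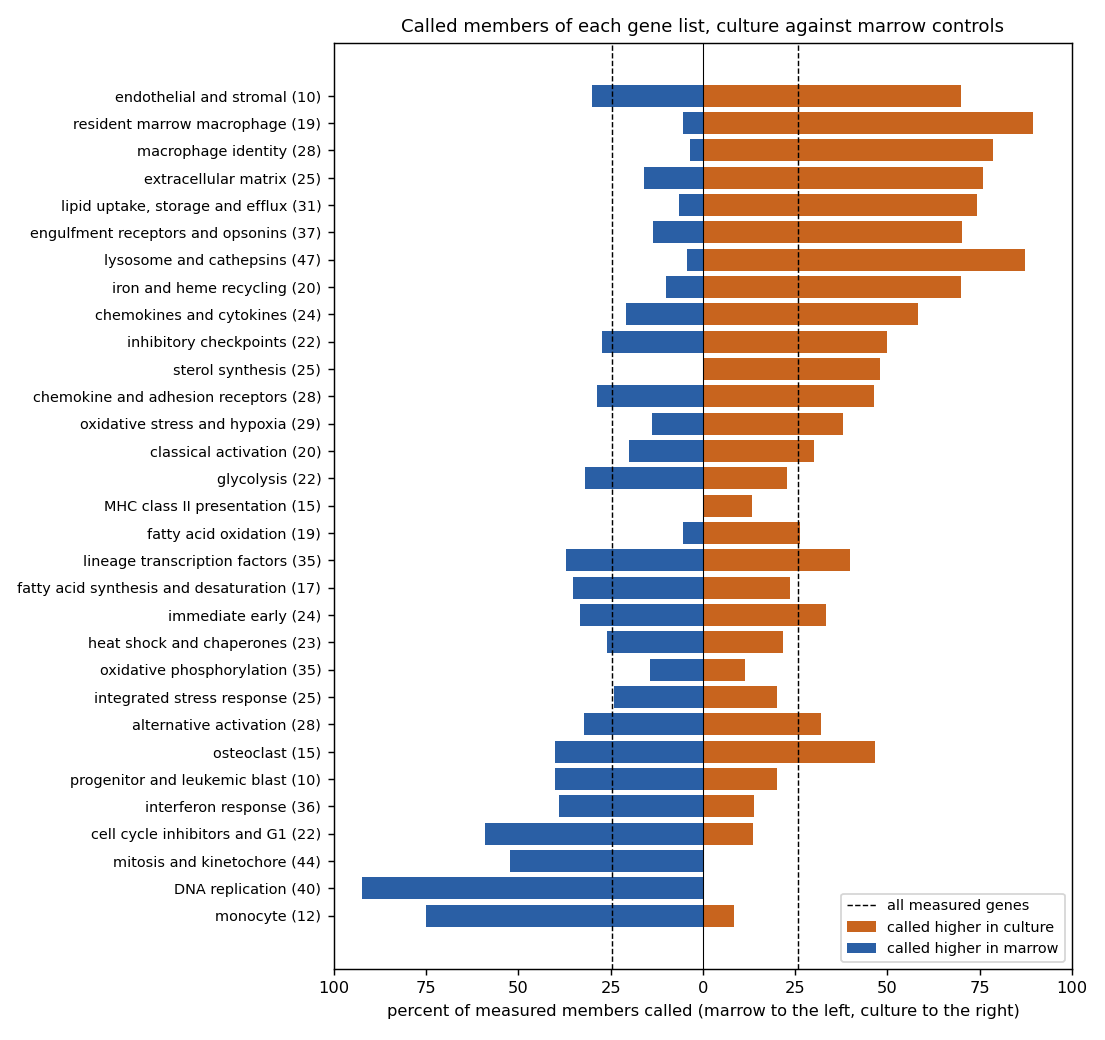
Percent of measured members of each gene list (number in brackets) called higher in culture, to the right, and higher in marrow, to the left, for the lists with at least 10 measured genes, ordered by median difference. Dashed lines mark the shares over all 9474 genes, 25.8% and 24.5%; resident macrophage and lysosome lists reach furthest to the right and the DNA replication list furthest to the left.

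DNA replication genes separated the sources almost throughout the list: of 40 measured, 37 were higher in marrow, 0 in culture and 3 were not called, with a median of -1.87. Over the single-library omissions this count ran from 35 to 39. Mcm2, a subunit of the replicative helicase (chr6:88883474-88898780, minus strand), had 38, 45, 31 and 7 reads in culture and 270, 251 and 276 in marrow (-3.33 ± 0.52, limma adjusted p = 0.000714). Cdc6, which loads that helicase, had 10, 8, 5 and 1 reads against 99, 94 and 84. Rrm2, the regulated subunit of ribonucleotide reductase, had 83, 80, 57 and 23 reads against 354, 407 and 447. Pcna, Gins2 and Tk1 were the members not called. Pcna, the sliding clamp, had 221, 110, 150 and 227 reads in culture and 218, 291 and 281 in marrow (-0.56 ± 0.22, limma adjusted p = 0.056).

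Mitosis genes differed less, and their count turned on single libraries. Of 44 measured mitosis and kinetochore genes, 23 were higher in marrow, 0 in culture and 21 were not called, with a median of -1.18. Without culture control 4 the count was 35 and the median -0.72. Without marrow controls 1, 2 and 3 in turn it was 14, 9 and 10. Voom weights on the recovered reads gave 36. Mki67, the proliferation marker Ki-67 (chr7:135689784-135716361, minus strand), had 625, 445, 498 and 142 reads in culture and 1226, 1450 and 1587 in marrow (-1.85 ± 0.39, limma adjusted p = 0.00397). Top2a, a topoisomerase of dividing cells, had 347, 303, 361 and 83 reads against 565, 710 and 768; its call was lost without marrow control 2 (limma adjusted p = 0.062) and without marrow control 3 (0.0653). Kif11, the spindle motor Eg5, had 116, 89, 104 and 25 reads against 289, 316 and 298. Culture control 4 was the lowest library for each of these 3 genes, and culture controls 1 to 3 still lay below every marrow control. Cdk1, the mitotic kinase, had 73, 61, 69 and 27 reads against 106, 128 and 111, a call lost without marrow control 1 (limma adjusted p = 0.0501) and without marrow control 2 (0.0672). Kif20a, a motor of cytokinesis, was not called, with 165, 111, 136 and 32 reads against 139, 114 and 163; after centring, culture controls 1 to 3 had levels of 6.64, 6.56 and 6.82, within the marrow range of 6.41 to 6.84. The neutrophil list read shares given above moved with the cycle genes between the groups, and their part in the difference was not tested.

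Regulators of G1 changed in both directions. Of 22 measured cell cycle inhibitors and G1 genes, 13 were higher in marrow, 3 in culture and 6 not called (median -0.71). Cdkn1a, the inhibitor p21, had 191, 123, 107 and 142 reads in culture and 8, 15 and 17 in marrow (3.45 ± 0.23, limma adjusted p = 3.97e-06). The D-type cyclins, which drive G1, divided by source. Ccnd1 had 137, 137, 108 and 60 reads in culture against 18, 19 and 11. Ccnd3 had 47, 38, 27 and 23 reads in culture against 505, 458 and 454, and Ccnd2 had 11, 15, 11 and 10 against 44, 54 and 62. Thus Ccnd1 RNA was higher in culture and Ccnd2 and Ccnd3 RNA in marrow, with no overlap for any of the 3. E2f2, an S-phase transcription factor, had 30, 20, 32 and 14 reads against 251, 279 and 309.

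Promoter sequences of 4 cycle genes are shown because the replication and mitosis lists carry different short motifs. They are RefSeq sequences of build GRCm38.p6, each covering 120 bases up to the annotated start on the strand of the gene, written 5′ to 3′. Capitals mark TTTCCCGC or TTTGGCGC, letters of E2F sites, in Mcm6. In Kif11, Cdk1 and Top2a they mark TTTGAA, the core of the cell cycle homology region (CHR), and CCAAT. Either strand counts, so TTCAAA and ATTGG are the same motifs read on the other strand. Mcm6 lies at chr1:128359706-128359825 (minus strand), Kif11 at chr19:37376262-37376381 (plus strand), Cdk1 at chr10:69352913-69353032 (minus strand) and Top2a at chr11:99024190-99024309 (minus strand).
Mcm6: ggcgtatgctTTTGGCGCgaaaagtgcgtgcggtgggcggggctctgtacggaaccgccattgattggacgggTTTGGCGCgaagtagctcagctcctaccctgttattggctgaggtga
Kif11: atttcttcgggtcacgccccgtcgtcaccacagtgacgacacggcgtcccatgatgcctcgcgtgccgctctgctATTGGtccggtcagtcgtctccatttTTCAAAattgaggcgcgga
Cdk1: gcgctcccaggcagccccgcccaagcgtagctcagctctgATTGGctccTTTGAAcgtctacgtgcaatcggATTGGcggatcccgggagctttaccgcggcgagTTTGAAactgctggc
Top2a: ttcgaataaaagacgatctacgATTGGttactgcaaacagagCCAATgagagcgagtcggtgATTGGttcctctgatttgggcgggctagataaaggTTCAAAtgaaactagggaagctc
Promoter windows of 250 bases before to 50 after the start were matched by symbol for 7742 of 9474 genes. Counted once per symbol, TTTGAA stood in 14.3% of 7724 promoters, in 76.3% of 38 mitosis promoters and in 9.38% of 32 replication promoters. TTTCCCGC or TTTGGCGC stood in 3.81% of all promoters, in 28.1% of replication promoters and in 5.26% of mitosis promoters. Among called genes it stood in 6.63% of promoters of those higher in marrow and 2.17% of those higher in culture. CCAAT stood in 43.3% of all promoters, in 78.9% of mitosis promoters and in 59.4% of replication promoters. It was not particular to cycle genes, with 88.9% of 18 sterol synthesis promoters and 61.1% of 18 heat shock promoters. TGACGTCA stood in 9.52% of 21 immediate early promoters and in 3.75% of all. TCACNCCAC stood in 5.56% of 18 sterol synthesis promoters and in 1.31% of all. A match describes the letters in the window and says nothing of a bound factor.

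**Figure D3:**
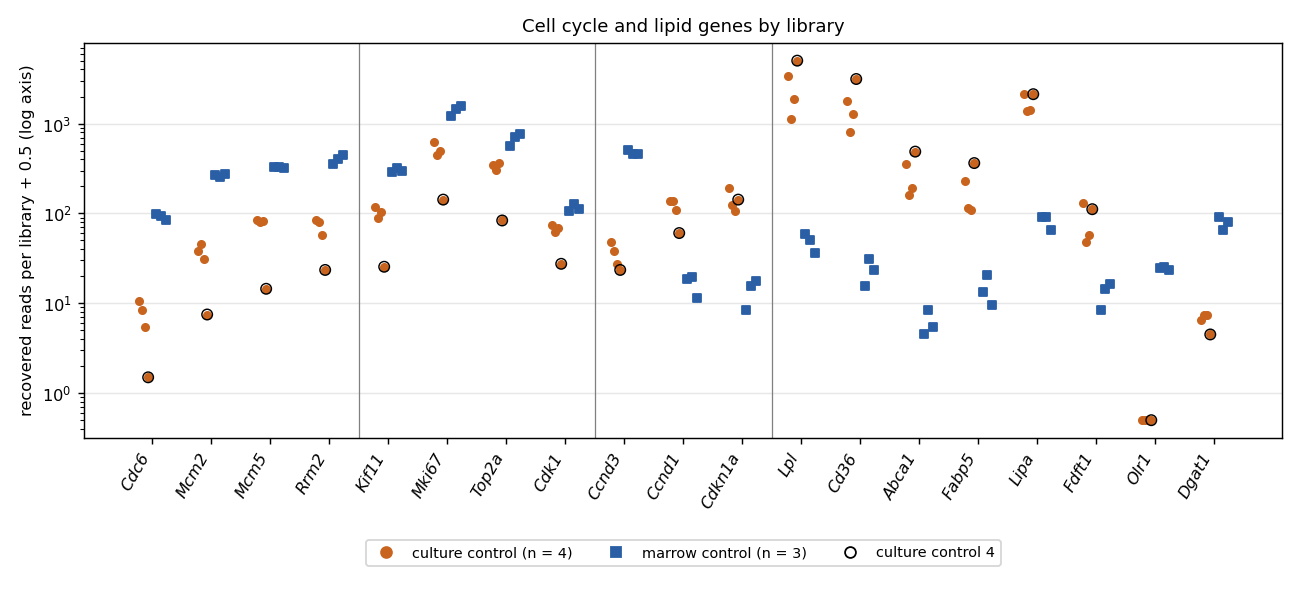
Recovered reads plus 0.5 on a log axis for replication, mitosis, G1 and lipid genes, in that order between the grey lines, with culture controls as orange circles (n = 4), marrow controls as blue squares (n = 3) and a ring on culture control 4. Mki67 lies at 142 to 625 reads in culture and 1226 to 1587 in marrow, and Lpl at 1126 to 5016 and 36 to 59.

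Lipid uptake and storage was the lipid group that separated the sources most. Of 31 measured genes, 23 were higher in culture, 2 in marrow and 6 not called (median 2.40). Read shares of the members with recovered reads were 1.97% to 4.30% in culture and 0.217% to 0.233% in marrow. Lpl, the lipoprotein lipase that frees fatty acids (chr8:68880491-68907448, plus strand), had 3349, 1126, 1887 and 5016 reads in culture and 59, 50 and 36 in marrow (5.74 ± 0.43, limma adjusted p = 8.45e-06). Cd36, a scavenger receptor for oxidized lipid, had 1791, 810, 1279 and 3134 reads against 15, 31 and 23. Abca1, the cholesterol efflux pump (chr4:53030787-53159895, minus strand), had 354, 158, 192 and 487 reads against 4, 8 and 5. In all 3 genes culture control 4 was the highest library and culture control 2 the lowest of the cultures, and every culture was above every marrow control.

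Lipa, the lysosomal acid lipase, had 2151, 1369, 1408 and 2124 reads against 90, 90 and 65. Fabp5, a fatty acid carrier, had 229, 114, 110 and 363 reads against 13, 20 and 9. Pparg, a nuclear receptor for lipids, had 30, 18, 17 and 44 reads against 0, 1 and 0, a ratio of 84.5 with a wide interval of 14.8 to 3370. Apoe, the apolipoprotein of macrophages, differed by 5.16 ± 0.38 (limma adjusted p = 7.87e-06). Abcg1, the partner efflux pump, had 104, 24, 58 and 229 reads in culture and 31, 31 and 23 in marrow, and was not called (1.48 ± 0.61, limma adjusted p = 0.0695); culture control 2 fell among the marrow values after centring, and without it Abcg1 was called (1.99, limma adjusted p = 0.00945). The members higher in marrow were Olr1 and Dgat1. Olr1, the oxidized LDL receptor LOX-1, had 0 reads in each culture control and 24, 25 and 23 in marrow, at least 31-fold higher in marrow. Dgat1, which makes triglyceride, had 6, 7, 7 and 4 reads against 91, 65 and 80.

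Sterol synthesis genes shifted modestly toward culture: 12 of 25 measured were higher in culture, 0 in marrow and 13 not called, with a median of 0.60. Fdft1, the squalene synthase, had 131, 47, 57 and 111 reads in culture and 8, 14 and 16 in marrow. Hmgcs1, an early enzyme of the pathway, had 76, 60, 53 and 85 reads against 36, 35 and 40 (0.92 ± 0.18, limma adjusted p = 0.00283). The sterol count was 8 to 11 when single libraries were left out.

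Fatty acid synthesis and desaturation had no common direction, with 4 of 17 measured genes higher in culture, 6 in marrow and a median of 0.00. Fads1, a desaturase, had 115, 114, 118 and 112 reads in culture against 22, 27 and 31. Acsl1, which activates long-chain fatty acids, had 67, 39, 38 and 43 reads against 124, 149 and 145. Scd2, a desaturase, was not called (-0.53 ± 0.26, limma adjusted p = 0.116), but was without culture control 4 (-0.71, limma adjusted p = 0.0296). The count higher in marrow was 3 without marrow control 2. Fatty acid oxidation had 5 of 19 genes higher in culture, 1 in marrow and a median of 0.05.

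Lysosomal genes were the widest group toward culture after the resident macrophage genes. Of 47 measured, 41 were higher in culture, 2 in marrow and 4 not called (median 2.00), and read shares were 2.67% to 3.64% against 0.654% to 0.727%. Ctsl, the protease cathepsin L, had 2348, 1400, 1280 and 1333 reads in culture and 19, 24 and 22 in marrow (6.19 ± 0.14, limma adjusted p = 1.38e-08). Lgmn, the protease legumain, had 1638, 1042, 1149 and 1257 reads against 29, 40 and 23. Ctse, the endosomal protease cathepsin E, and Acp5, the tartrate-resistant phosphatase, were the members higher in marrow. Ctse had 70, 24, 37 and 48 reads in culture against 515, 423 and 532.

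Receptors and opsonins of engulfment had 26 of 37 measured genes higher in culture, 5 in marrow and 6 not called (median 2.11). C3, the central complement protein, was among those higher in marrow, with 13, 9, 10 and 11 reads in culture and 1140, 1249 and 1141 in marrow (-6.66 ± 0.13, limma adjusted p = 5.94e-09). The other 4 were Anxa1, Rac2, Itgb3 and Cd300lf. Sirpa, the inhibitory receptor for CD47, had 2702, 1689, 1913 and 2112 reads in culture and 385, 358 and 443 in marrow. Its ligand gene Cd47 had 119, 82, 69 and 89 reads in culture and 184, 206 and 202 in marrow (-1.10 ± 0.13, limma adjusted p = 0.000108).

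**Figure D4:**
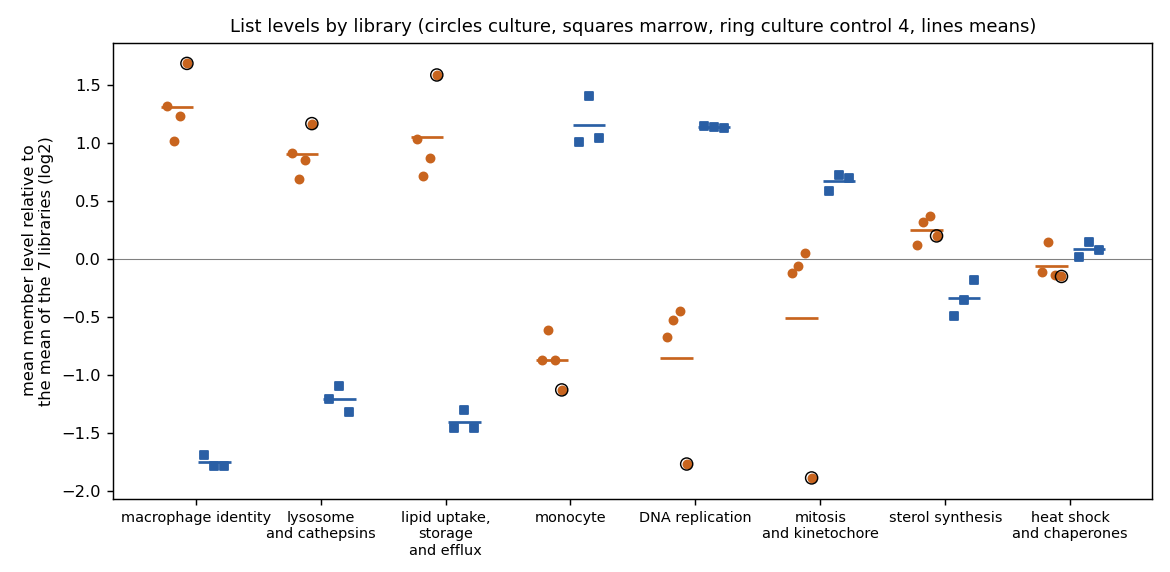
Mean centred level of each list's members in each library, relative to the mean of the 7 libraries (log2); circles are culture controls, squares marrow controls, lines group means, and a ring marks culture control 4. The mitosis level of culture control 4 was -1.89, against -0.12 to 0.05 in the other cultures and 0.59 to 0.73 in marrow.

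The immediate early, heat shock and integrated stress response lists had no common direction. Of 24 measured immediate early genes, which respond within minutes to signals or handling, 8 were higher in culture and 8 in marrow, with a median of -0.01. Fos had 703, 534, 413 and 582 reads in culture and 474, 496 and 621 in marrow and was not called (0.12 ± 0.14, limma adjusted p = 0.522). Egr1, a serum-responsive factor, had 322, 305, 279 and 294 reads against 18, 20 and 23 (3.92 ± 0.14, limma adjusted p = 1.60e-07). Atf3 had 203, 103, 118 and 475 reads against 15, 29 and 10. Fosb went the other way, with 2, 8, 9 and 12 reads in culture and 41, 77 and 71 in marrow. Klf4, a factor of monocytes and also an immediate early gene, had 19, 11, 16 and 12 reads against 84, 85 and 90. Socs3, which limits cytokine signalling, had 2, 8, 3 and 3 reads against 24, 15 and 18.

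Heat shock and chaperone genes had 5 of 23 members higher in culture, 6 in marrow and a median of -0.03, shares close to those over all genes. Bag3, a co-chaperone, had 38, 26, 18 and 52 reads in culture against 11, 9 and 6. Dnajb1, an inducible co-chaperone, had 47, 36, 32 and 25 reads against 96, 84 and 90. Hspa1a, the inducible HSP70, had 2, 1, 2 and 1 reads in culture and 6, 16 and 11 in marrow, a ratio of 7.10 with an interval of 2.94 to 20.7. Hspa1a and Hspa1b are near-identical copies, so the split of reads between them is uncertain. Hspa8, the constitutive HSP70, was not called (0.32 ± 0.12, limma adjusted p = 0.054). GAANNTTC, letters of the heat shock element, stood in 9 of 18 promoters of this list and in 6.77% of all promoters.

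The integrated stress response list had 5 of 25 members higher in culture and 6 in marrow (median -0.05). These shares were not above those over all genes, 25.8% and 24.5%. Atf4, its main factor, had 167, 103, 133 and 155 reads in culture and 159, 196 and 180 in marrow and was not called (-0.31 ± 0.15, limma adjusted p = 0.122), though it was without culture control 4 (-0.40, limma adjusted p = 0.0382). Ddit3, the gene for CHOP, had 8, 10, 11 and 11 reads against 12, 13 and 3 and was not called. Slc3a2, an amino acid transporter chain, was higher in culture, with 337, 245, 264 and 272 reads against 65, 94 and 60. Its transport partner Slc7a5 was higher in marrow, with 22, 21, 20 and 11 reads against 57, 50 and 61. The 2 chains of 1 transporter thus differed in opposite directions.

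Antioxidant and hypoxia genes had 11 of 29 members higher in culture, 4 in marrow and a median of 0.26. Prdx1, a peroxidase, had 552, 311, 339 and 566 reads in culture against 51, 48 and 47. Srxn1, which repairs peroxiredoxins, had 161, 93, 93 and 194 reads against 3, 3 and 9. Cat, catalase, had 554, 342, 395 and 431 reads against 60, 65 and 64. Genes of glutathione metabolism differed in both directions. Gclm, a subunit of the enzyme that starts glutathione synthesis, was higher in culture (1.20, limma adjusted p = 0.000351), and Gclc and Gpx4 were not called. Gsr, the glutathione reductase, had 56, 31, 42 and 75 reads in culture and 504, 401 and 499 in marrow, and Gpx1 had 348, 252, 246 and 253 against 718, 719 and 695.

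Interferon response genes had 14 of 36 members higher in marrow, 5 in culture and 17 not called, with a median of -0.51. Rsad2, an antiviral enzyme, had 10, 4, 3 and 4 reads in culture and 40, 41 and 48 in marrow. Irf7, a factor of the pathway, had 31, 15, 7 and 7 reads against 66, 59 and 96. Oxidative phosphorylation genes were the least divided of the larger lists by count: 4 of 35 were higher in culture, 5 in marrow and 26 not called, below the shares over all genes. Without centring those counts were 1 and 8, and without marrow control 1 there were 2 higher in culture.

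Lineage transcription factors had 14 of 35 members higher in culture, 13 in marrow and 8 not called. Maf, a factor of mature macrophages, had 400, 354, 311 and 227 reads in culture and 8, 9 and 2 in marrow. Id3, an inhibitor of differentiation factors, had 255, 152, 177 and 168 reads against 7, 7 and 3. Ets1 had 27, 24, 26 and 19 reads in culture and 241, 232 and 199 in marrow, and Ikzf1, the lymphoid and myeloid factor Ikaros, had 106, 60, 77 and 50 against 385, 345 and 389. Irf8, a factor of monocytes and dendritic cells, was not called, with 255, 111, 123 and 217 reads against 139, 196 and 149.

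The libraries with IL4 gave a second comparison of the same sources with no library in common. There 5256 genes were called (55.5% of 9474), 2641 higher in culture and 2615 higher in marrow. Without centring, which moved the median difference of all genes from -0.04 to -0.46, the split was 1802 and 4072. Of genes higher in culture in the controls, 1775 were also called higher in culture with IL4, 72.7% of the controls' list and 67.2% of the IL4 list, and 66 were called in the opposite direction. Of genes higher in marrow in the controls, 1591 were called again (68.6% of the controls' list, 60.8% of the IL4 list) and 86 in the opposite direction. The source difference itself changed with IL4 for 1789 genes (18.9%; limma interaction over 14 libraries). It was more toward culture with IL4 for 889 and less for 900, or 611 and 1575 without centring. S100a9 had 0 reads in every IL4 culture and 46439 in the IL4 marrow libraries together, so no size is given for its difference there. Gpnmb differed by 11.25 in the controls and 12.51 with IL4, and its interaction was not called. Csf1r differed by 3.07 and 3.53, and Mki67 by -1.85 and -3.06, again with no interaction called. Chil3 differed by -9.53 in the controls and 0.36 with IL4, and Ear2 by -5.94 and 2.29, where the control value rests on 2 reads in culture and so on the 0.5 added to each count. Slc40a1 changed sign from 1.46 to -5.58, and Egr1 went from 3.92 to -0.21. These 4 interactions were called. Ear2 and Chil3 each have close gene copies, which could share reads.

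**Figure D5:**
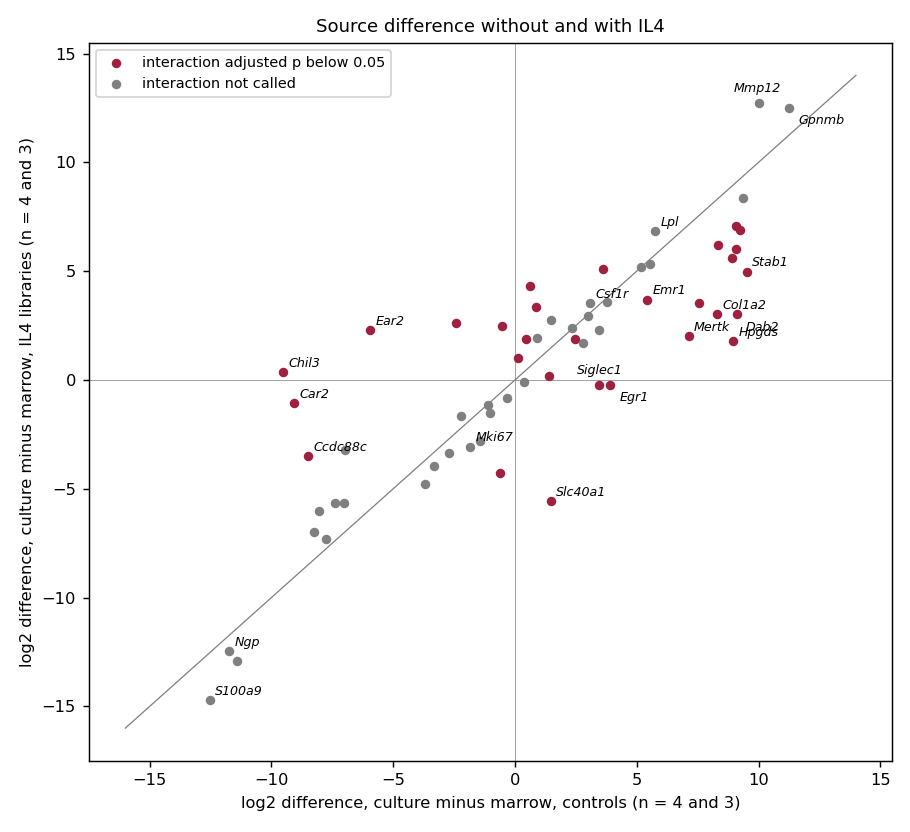
Log2 difference culture minus marrow in the controls (horizontal axis) and in the IL4 libraries (vertical axis), n = 4 and 3 on each axis, for 62 named genes; the grey line marks equal differences. Red points have a called interaction, 29 genes, among them Chil3 at -9.53 and 0.36; Points of genes with few reads in a group depend on the 0.5 added to each count: S100a9 had 0 reads in the IL4 cultures, and Cx3cr1, a red point, 0 in all 7 IL4 libraries.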

How the data were processed

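Per the labels' protocols, an RNeasy Micro kit was used for RNA and the TruSeq v2 kit for libraries. Reads were demultiplexed with bcl2fastq and TopHat2 2.0.13 and build mm10 were used, per the submitters' processing notes. For the counting tool, gene filter, normalization and strand setting the entry is: not given in the sources used here. The authors deposited 2 tables of log2 expression values, 1 for culture and 1 for marrow, with the same 9474 genes. The deposited p-value columns and fold change columns compare IL4 with control and were not used here. All sample columns were mapped to samples (0 left unmapped).

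The tables were joined on gene symbol. Whole reads plus 0.5 were recovered from the spacing of the deposited log2 values for 9375 genes; residuals below 100 reads reached at most 0.0007 log2, and the shift per gene differed by at most 0.000535 log2 between the tables. For 99 genes, Emr1 among them, no reads were recovered and only levels are given. Values were centred on each library's median and fitted with limma 3.58.1 in R 4.3.3, with a variance trend, on the 7 control libraries (5 residual degrees of freedom). The IL4 libraries were fitted alike, and the interaction over all 14. Recovery and fit were tested on simulated data. Read ratios use reads scaled by the same centring, with 95% exact intervals and a floor of 3 reads over a group; intervals and floors cover counting error only. Coordinates are from GENCODE M21, which was matched to 197 of 199 named genes and has the build the authors name, and promoters from RefSeq (GRCm38.p6).

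Genes named by rule were the 12 greatest differences each way among called, non-overlapping, annotated genes above the 25th percentile of mean reads, the 3 called members of smallest p each way in lists with at least 3 called, and a list of genes always given. Results for a few named genes and list members are not reported here. Further list members were chosen as examples after their values were seen. Members, lists (39 lists, 699 of 983 genes measured) and rule were chosen with earlier results of these data known, and the lists are not independent evidence. Alternatives were other scalings, a read filter, other variance settings, voom on the recovered reads, a replicate block and omission of each library.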

Additional observations from a re-analysis of the deposited data

Results flagged for a closer look

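Among the 4 culture controls, 1 library stood apart from the other 3 for 3 of 39 list levels and for 19 of 195 named genes with reads in culture, by Dixon's criterion for 4 samples (its gap to the nearest other over the whole range exceeded the 95% critical value). Chance flags about 1 in 20 groups. Genes with 0 reads in every culture control were left out of this count after the values were seen. Culture control 4 was the library concerned for 2 of the lists and 9 of the genes. Its list level, relative to the mean of the 7 controls, was -1.77 for DNA replication and -1.89 for mitosis. The heat shock list level of culture control 2 was 0.15, above the other cultures.

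In culture control 4, centred log2 levels were below the other cultures for Kif11 (2.27), Mki67 (6.35) and Smc4 (5.84), genes of dividing cells. They were above the other cultures for Gpnmb (12.1), Irf4 (4.09), Itgb5 (8.66), Klf6 (7.19), Mertk (7.99) and Mitf (7.39). Culture control 2 was low for Acap1 (-2.06) and Ftl1 (11.76) and high for Ear2 (0.74), Nfkbiz (3.79) and Prg2 (1.92). Culture control 1 was low for Ddit3 (0.43), Fads1 (6.52) and Nars (6.51). Culture control 3 was low for Gata2 (3.37) and high for Sqle (4.68). In culture controls 1 to 4, Acap1 had 2, 0, 1 and 1 reads and Ear2 0, 2, 0 and 0. Prg2 had 0, 6, 0 and 0 reads, and Gata2 3, 2, 0 and 3. With so few reads, the levels of Acap1, Ear2, Prg2 and Gata2 depend on the 0.5 added to each count.

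The culture minus marrow difference changed with IL4, by the limma interaction, for 99 of the 199 named genes. After that count was seen, values were kept for the 62 named by size or always given, of which 29 passed and 27 are given here; Cx3cr1 is left out because it had 0 reads in all 7 IL4 libraries. The values are the difference with IL4 minus that without, on the log2 scale. For 14 of the 27 genes, at least 1 of the 4 groups had 3 reads or fewer in all, so the size depends on the 0.5 added to each count and is neither an estimate nor a bound. These are Cadm1, Car2, Ccdc88c, Cd34, Col1a2, Ear2, Fcrls, Gas6, Hpgds, Mertk, Ms4a7, Pf4, Pmp22 and Stab1. The difference moved toward culture for the myeloid and eosinophil genes Chil3 (9.89) and Ear2 (8.23), for Car2 (8.03), Ccdc88c (5.02) and Cd68 (1.5), and for the stress genes Hspa1a (5.02), Jun (1.46) and Fos (0.87). The lipid genes Scd2 (3.0) and Sqle (2.47) moved the same way.

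It moved toward marrow for the macrophage receptors Mertk (-5.12), Stab1 (-4.53), Siglec1 (-3.68), Emr1 (-1.72) and Sirpa (-0.58). Among other genes high in cultured controls, Hpgds gave -7.17, Slc40a1 -7.03, Dab2 -6.09, Col1a2 -5.27, Pf4 -3.99, Gas6 -3.33, Ms4a7 -3.03, Fcrls -2.37, Cadm1 -2.15 and Pmp22 -2.01. Egr1 gave -4.12 and the progenitor gene Cd34 -3.66.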

How the results depend on the processing

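In the controls, called genes numbered 4103 to 4893 over the 9 alternatives that kept all libraries and 4036 to 4743 with single libraries left out, against 4763. The lowest of the first range tested 7112 genes only. Of the 199 named genes, 193 were called. Of these, 171 were tested in each of the 16 alternatives run for the controls, and 158 of the 171 were called in each. No direction reversed for the 193 called genes in the alternatives that tested them. Sign changes of named genes called neither in the main fit nor in the alternative were not counted. Without centring, the share of calls higher in culture was 41.6% (51.3% with it) in the controls, and 30.7% (50.2%) with IL4, where 4072 genes were higher in marrow; for the interaction 611 were higher and 1575 lower (889 and 900). Depth limits genes of few reads: the 25th percentile of mean reads per gene was 16.4.

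A replicate block gave 4442 calls (2262 and 2180). Deviations of same-numbered libraries correlated by -0.0197, -0.00751 and -0.015, so the numbers give no pairing. Under the block, counts toward marrow were iron 1 (2 without it), sterol synthesis 1 (0), fatty acid oxidation 0 (1), class II 1 (0) and oxidative phosphorylation 3 (5), and toward culture monocyte 2 (1), class II 1 (2), phagocyte oxidase 0 (1) and progenitor 4 (2).

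Other list counts moved more than 1.5 times, with the count of the report in brackets. The filter and voom weights test fewer genes, and the cause of the moves was otherwise not tested. With the filter on reads, counts toward marrow were resident macrophage 0 (1), fatty acid synthesis 2 (6), lipid uptake 1 (2), integrated stress response 3 (6), chemokines 3 (5), alternative activation 5 (9), classical activation 2 (4), dendritic 1 (2), progenitor 2 (4) and endothelial 1 (3). Toward culture they were eosinophil 0 (1) and megakaryocyte 1 (2). Without a variance trend, iron toward marrow was 1, class II toward culture 1 and phagocyte oxidase toward culture 0. With voom weights, iron and mitosis toward marrow were 1 and 36, and monocyte and phagocyte oxidase toward culture 2 and 0. Of the phagocyte oxidase genes voom tested 6 of 8. It left out Lyz2, the member called higher in culture, since no Lyz2 reads were recovered. With all 14 libraries, iron and fatty acid synthesis toward marrow were 1 and 3, and monocyte, class II and phagocyte oxidase toward culture 2, 1 and 0. Without centring, fatty acid oxidation, class II and oxidative phosphorylation toward marrow were 3, 1 and 8, and heat shock, class II, oxidative phosphorylation and phagocyte oxidase toward culture 3, 1, 1 and 0. Centring on the 75th percentile gave fatty acid oxidation 2 toward marrow, and class II 1 and phagocyte oxidase 0 toward culture. Quantile normalization gave heat shock 3, class II 1, oxidative phosphorylation 1 and phagocyte oxidase 0 toward culture.

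With single libraries left out, counts toward marrow ran over 1 to 2 for iron, 9 to 35 for mitosis, 3 to 7 for fatty acid synthesis, 0 to 1 for class II and 2 to 5 for progenitor. Toward culture they ran over 1 to 2 for monocyte, 1 to 2 for class II, 2 to 4 for oxidative phosphorylation, 0 to 1 for phagocyte oxidase and 2 to 4 for progenitor.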

Other observations

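Secreted factors also separated the control sources. Of 24 measured chemokine and cytokine genes, 14 were higher in culture, 5 in marrow and 5 not called, with a median of 1.15. Igf1, insulin-like growth factor 1, had 738, 488, 470 and 684 reads in the culture controls and 2, 3 and 1 in the marrow controls (8.01 ± 0.28, limma adjusted p = 1.60e-07). Spp1, osteopontin, had 1227, 631, 776 and 673 reads against 4, 11 and 5. Pf4, platelet factor 4, had 362, 332, 294 and 149 reads against 1, 1 and 1. Pf4 is also in the megakaryocyte list, where 2 of 5 measured genes were higher in culture and 2 in marrow. Every culture control lay far above every marrow control for these 3 genes. Osm, the cytokine oncostatin M, went the other way, with 20, 14, 12 and 19 reads against 71, 38 and 77.

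Chemokine and adhesion receptors had 13 of 28 genes higher in culture and 8 in marrow (median 0.44). Itgb5, an integrin chain, had 669, 474, 492 and 639 reads in culture against 7, 12 and 12, while Itgb7, another integrin chain, had 70, 23, 32 and 20 against 207, 228 and 247. Inhibitory checkpoint genes had 11 of 22 higher in culture and 6 in marrow (median 0.68). Cd33, an inhibitory sialic acid receptor, had 39, 21, 28 and 18 reads against 187, 112 and 183, and Cd200r1, the receptor for CD200, had 127, 75, 72 and 116 against 19, 19 and 15.

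Activation genes had no common direction. The alternative activation list had 9 of 28 higher in culture and 9 in marrow (median -0.14), and the classical list 6 of 20 and 4 (median 0.23). MHC class II presentation genes had 2 of 15 higher in culture, 0 in marrow and 13 not called (median 0.07). Ctss, the protease cathepsin S, was 1 of the 2, with 2284, 1143, 1281 and 3731 reads against 279, 313 and 234.

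Osteoclast genes divided, 7 of 15 higher in culture and 6 in marrow (median -0.20). Atp6v0d2, a proton pump subunit, had 171, 54, 93 and 572 reads in culture against 0, 1 and 0, highest in culture control 4. Glycolysis genes had 5 of 22 higher in culture and 7 in marrow (median 0.07). Slc2a3, the glucose transporter GLUT3, had 7, 3, 4 and 2 reads against 266, 135 and 216 (-5.52 ± 0.33, limma adjusted p = 2.20e-06), while Slc2a1, the transporter GLUT1, had 42, 33, 26 and 35 against 12, 13 and 20. The 2 glucose transporter genes thus differed in opposite directions. Phagocyte oxidase and granule genes had 4 of 8 higher in marrow and 1 in culture (median -0.71), and Ncf1, an oxidase subunit, had 414, 283, 234 and 248 reads against 796, 661 and 750. Of dendritic cell genes, 3 of 6 were higher in culture and 2 in marrow. Of 29 T and NK cell genes listed, only Cd28 and Il7r were measured. Both were higher in culture, and 2 genes do not show whether RNA of those lineages differed.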
